A study of Bos taurus with 8 samples.

Results

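The genes examined in the MIRA-Seq libraries of bovine dermal fibroblasts were 10 that are normally used in germ cells: DAZL, DDX4, SYCP1, SYCP3, MAEL, TDRD1, HORMAD1, BRDT, STK31 and SYCE1. They were taken by gene symbol. Of these 10 genes, 9 were named in the count tables, and they covered 119 of the 902984 windows, or 155 with 2 windows added on each side of every gene. The tables name 26107 genes in all. SYCP1 was not found under its symbol. The gene ID of LOC525413 is paired with SYCP1 in the RefSeq gene table, and its values are given beside the 9 genes without being counted among them, since this match was made after the names in the tables had been seen.

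Germ cells carry a set of genes for meiosis, for germ granules and for the piRNA pathway, which keeps transposons in check. In many mammals the CpG-rich promoters of a number of these genes are methylated in body cells and lose methylation in the early germline. A promoter of this kind is a known place where methylation and silence go together, and fibroblasts are body cells. Whether these genes were silent in the cultures was not examined.

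MIRA-Seq pulls down sonicated DNA through a protein complex that binds methylated CpG sites, so the number of reads in a region rises with the number of methylated CpG in it. The cultures came from shoulder skin of 4 Holstein and 4 Angus heifers of one age group, were not treated, and were used at passage 5, with 1 library per animal (called Holstein 1 to 4 and Angus 1 to 4). Reads were given for consecutive 3 kb windows of the UMD v3.1 genome and are reported here as CPM, that is, read counts scaled to the library's total over windows. The libraries held between 18691111 and 35525554 reads in windows, so that 3 reads, below which a window was not told from an empty one, were worth 0.0844 to 0.161 CPM; such floors cover counting error only. The top 1% of windows took 69.0% of the reads in Holstein 1 and 72.4% in Angus 3, against 46.8 to 57.4% in the other libraries, which lowers the CPM of ordinary windows in these libraries. The median gene body of all autosomal genes stood at 0.412 CPM in Holstein 1 and 0.360 CPM in Angus 3, and at 0.553 to 0.733 CPM in the others.

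The window at the 5′ end of a gene, read along its strand, is called the first window, and the remaining windows that carry the gene's name form the gene body. The tables name 1 coding exon per window, and the first window held coding exon 1 in DAZL, DDX4, TDRD1, STK31, SYCE1 and BRDT. In HORMAD1 coding exon 1 lay in the second window. In MAEL and SYCP3 the first window was named for exon 3, so in MAEL, SYCP3 and HORMAD1 the start site may lie in a neighbouring window, and what their first windows hold of the promoter was not settled. Since the libraries hold DNA and no RNA, whether the genes were silent and whether the cells were fibroblasts by their markers was not examined here.

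In the fibroblasts, 8 of the 9 germline genes had a first window above the usual level of gene starts, and in 7 of the 8 genes that could be tested it was at least 2-fold above their own gene body. BRDT, which encodes a testis bromodomain protein, did neither. The first windows of DDX4, TDRD1 and HORMAD1 held the most reads, with more than 2 CPM on average, while the median first window of 23916 autosomal genes held 0.405 CPM. A CPM of at least 1 in 4 or more libraries was reached by the first window of 8 of the 9 genes, against 21.9% of all autosomal first windows. It was reached by 1 of their 110 gene-body windows and by 3 of the 36 windows beside the genes, against 13.2% of all autosomal windows.

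**Figure D1:**
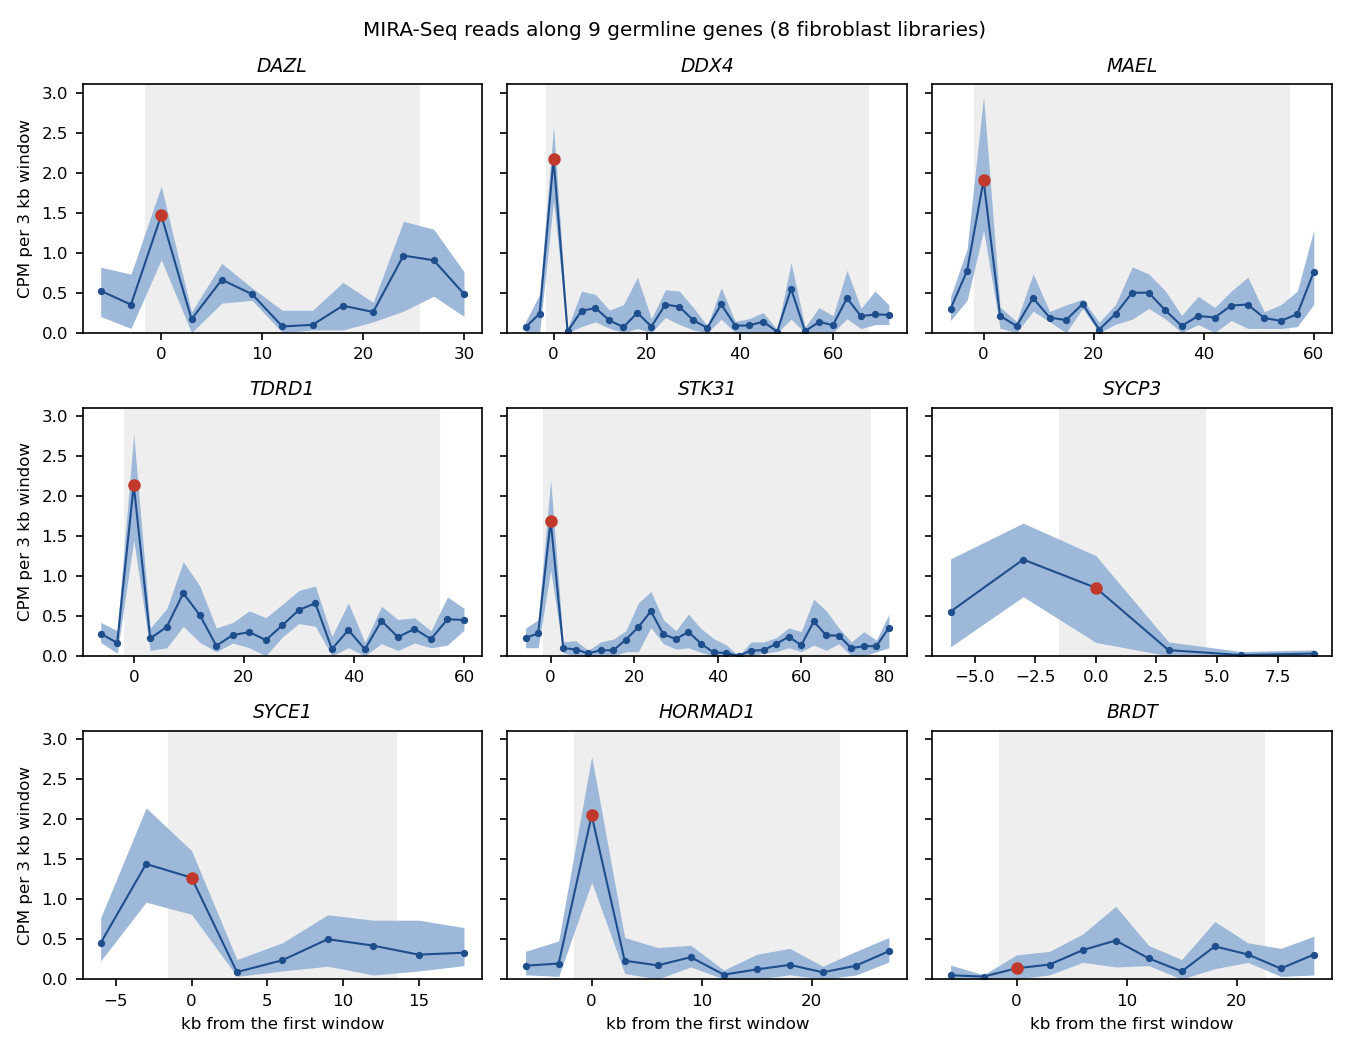
MIRA-Seq reads along the 9 germline genes. The x axis gives the distance in kb from the first window in the direction of transcription, the y axis the CPM of each 3 kb window; lines are means of 8 libraries, blue bands the lowest to highest library, red points the first window, and grey shading the windows named for the gene. A single high window stands at the start of DDX4, TDRD1, HORMAD1, MAEL and STK31, the high reads of SYCP3 and SYCE1 extend upstream, and BRDT has no peak at its start.

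DAZL and DDX4 encode RNA-binding proteins that mark the germ cell lineage, DDX4 being the vertebrate vasa helicase. The first window of DDX4 (chr20:23442718-23445717, minus strand) held 2.02, 1.90, 2.57 and 2.51 CPM in Holstein 1 to 4 and 1.85, 2.33, 1.65 and 2.51 CPM in Angus 1 to 4, with a mean of 2.17 ± 0.356 CPM (SD, n = 8). The breeds overlapped, and every library lay far above the DDX4 gene body, which averaged 0.188 ± 0.0652 CPM over 22 windows. The next window inside the gene held 0.0165 CPM on average, below the value of 3 reads, so the drop from the first to the second window was sharp.

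The first window of DAZL (chr1:155404501-155407500, minus strand) held 0.910, 1.56, 1.32 and 1.83 CPM in Holstein 1 to 4. In Angus 1 to 4 it held 1.43, 1.43, 1.44 and 1.82 CPM, giving 1.47 ± 0.292 CPM over both breeds (SD, n = 8). Holstein 1 was the lowest library and the breeds overlapped. DAZL differed from the other genes at its far end: the last window of the gene (chr1:155380501-155383500) held 0.963 ± 0.402 CPM and the window beyond it 0.904 ± 0.339 CPM. No coding exon was named in either. The last window of DAZL was the only gene-body window of the 9 genes to reach 1 CPM in 4 or more libraries.

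MAEL, TDRD1 and STK31 belong to the germ granule, or nuage; MAEL and TDRD1 serve the piRNA pathway, and STK31 encodes a kinase with a Tudor domain. The first window of TDRD1 (chr26:34935231-34938230, plus strand) held 1.77, 2.77, 2.35 and 2.42 CPM in Holstein 1 to 4 and 1.75, 2.12, 1.44 and 2.46 CPM in Angus 1 to 4. Its mean was 2.13 ± 0.447 CPM, against 0.338 ± 0.0853 CPM in the gene body and 0.162 CPM in the window upstream. Inside TDRD1 the fourth window, with no coding exon, stood at 0.783 ± 0.270 CPM, and all other windows of the gene body lay lower.

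For MAEL (chr3:1934810-1937809, minus strand) the first window held 1.37, 1.86, 1.74 and 2.00 CPM in Holstein 1 to 4 and 1.68, 2.96, 1.28 and 2.35 CPM in Angus 1 to 4. Angus 2 was the highest value of any of the 9 genes in any library. The mean was 1.90 ± 0.545 CPM, and the window upstream of MAEL held 0.771 ± 0.213 CPM, above its gene body of 0.249 ± 0.0700 CPM.

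The first window of STK31 (chr4:72485705-72488704, minus strand) held 1.31, 2.03, 2.12 and 2.20 CPM in Holstein 1 to 4 and 1.15, 1.43, 1.07 and 2.19 CPM in Angus 1 to 4. Holstein 2, 3 and 4 and Angus 4 were near 2 CPM and the rest lower, so the breeds overlapped. The STK31 mean was 1.69 ± 0.491 CPM in the first window and 0.172 ± 0.0462 CPM in the 25 windows of the gene body, 1 of which held no read in any library.

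SYCP3, SYCE1 and HORMAD1 work on the meiotic chromosome axis and the synaptonemal complex, which holds paired chromosomes together; SYCP1 forms the complex's transverse filaments. HORMAD1 had high reads in its first window alone. That window (chr3:20056610-20059609, plus strand) held 1.67, 2.29, 1.74 and 2.31 CPM in Holstein 1 to 4 and 2.304, 2.05, 1.21 and 2.78 CPM in Angus 1 to 4. The mean was 2.04 ± 0.489 CPM, against 0.194 CPM in the window upstream, 0.230 CPM in the second window, which holds coding exon 1, and 0.159 ± 0.0589 CPM over the gene body. The first window took 63.8% of all HORMAD1 reads while making up 12.5% of its windows.

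In SYCE1 (chr26:50515031-50518030, plus strand) the first window held 0.809, 1.30, 0.832 and 1.52 CPM in Holstein 1 to 4 and 1.501, 1.46, 1.11 and 1.61 CPM in Angus 1 to 4, with a mean of 1.27 ± 0.315 CPM. The window just upstream, which carries no gene name, held 1.44 ± 0.374 CPM and the first window exceeded it in 2 of 8 libraries. The high reads around the SYCE1 start lay on both sides of the border between these windows.

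SYCP3 has only 2 windows, too few for the test against the gene body. Its first window (chr5:65886606-65889605, minus strand) held 0.607, 0.822, 0.568 and 1.13 CPM in Holstein 1 to 4 and 1.19, 1.25, 0.168 and 1.07 CPM in Angus 1 to 4. Angus 3 rested on 5 reads and lay far under the other Angus libraries. The mean of SYCP3 was 0.850 ± 0.379 CPM, against 0.0716 ± 0.0574 CPM in its second window. The window upstream is named for LOC783276 on the same strand and held more, 1.20 ± 0.320 CPM, with the first window above it in 1 of 8 libraries.

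BRDT stood apart from the others. Its first window (chr3:51564310-51567309, minus strand) held 0.101, 0.303, 0.0378 and 0.253 CPM in Holstein 1 to 4 and 0.244, 0, 0.0336 and 0.107 CPM in Angus 1 to 4, which is 0 to 9 reads per library. In 5 of 8 libraries the count was under 3 reads. The mean of 0.135 ± 0.116 CPM was below the BRDT gene body, with 0.299 ± 0.0706 CPM, and both windows upstream held less still, 0.0310 and 0.0477 CPM. The start of BRDT thus lacked the high reads seen at the other genes. Whether it was methylated was not tested, since the number of CpG in the window was not measured.

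LOC525413, the gene paired with SYCP1 by its ID, showed the same form as most of the 9 genes. The first of its 50 windows (chr3:28586910-28589909, minus strand) held 1.31, 1.82, 1.63 and 2.11 CPM in Holstein 1 to 4 and 1.54, 1.29, 1.11 and 1.61 CPM in Angus 1 to 4. The mean was 1.55 ± 0.320 CPM, against 0.207 ± 0.0600 CPM in its gene body and 0.0386 CPM in the window upstream.

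**Figure D2:**
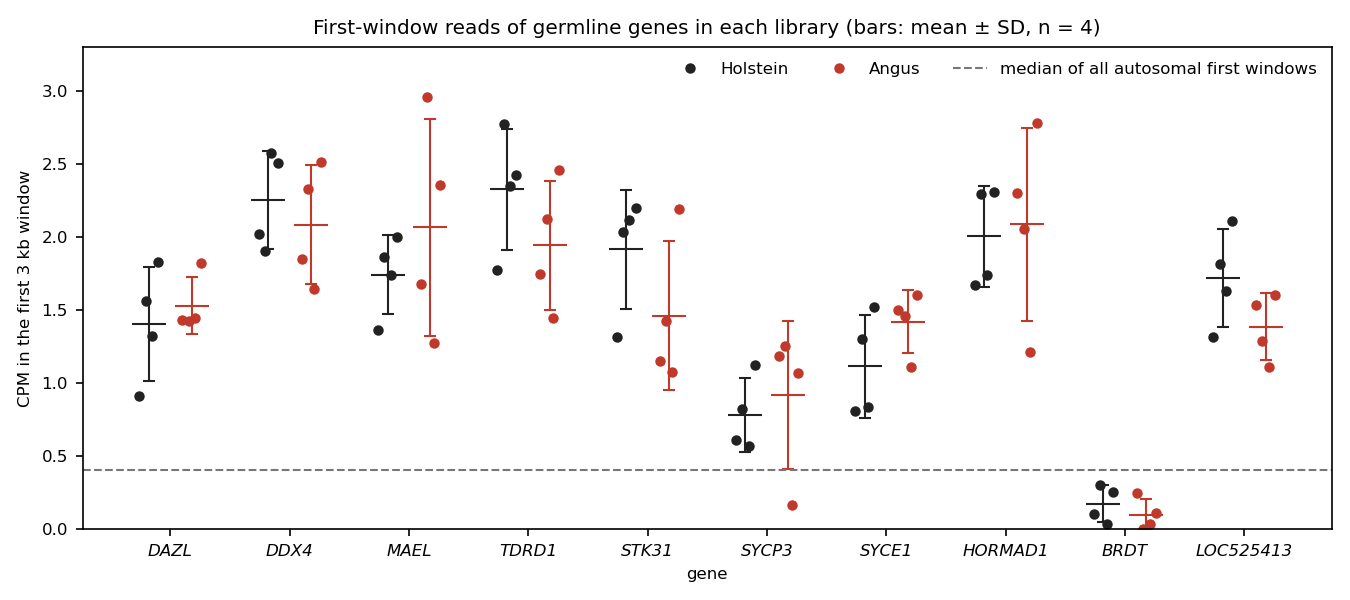
CPM in the first 3 kb window of the 9 germline genes and LOC525413. Points are single libraries (black Holstein, red Angus), bars the mean ± SD of 4 libraries, and the dashed line the median of 23916 autosomal first windows, 0.405 CPM; BRDT lies below the line in every library, SYCP3 in Angus 3 alone, and the other genes above it in all 8.

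Ordered by the mean of their first windows, the genes ran DDX4, TDRD1, HORMAD1, MAEL, STK31, DAZL, SYCE1, SYCP3 and BRDT. From DDX4 to SYCE1 each gene differed from the next by 0.0334 to 0.221 CPM, less than the larger SD of each pair. That SD also holds differences between libraries that both genes share, and the paired differences were not tested. The higher gene of each pair led in 5 to 7 of 8 libraries, DDX4 leading TDRD1 in 7. The ends of this run did separate, as the lowest library of DDX4, with 1.65 CPM, lay above the highest of SYCE1, with 1.61 CPM. SYCE1 was above SYCP3 by 0.417 CPM, just over the larger SD of 0.379 CPM, and SYCP3 above BRDT by 0.715 CPM, each in 8 of 8 libraries.

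The place of each first window among all autosomal first windows was taken in each library, as a percentile, and averaged. DDX4 was at the percentile 92.1, TDRD1 at 91.8, HORMAD1 at 91.1, MAEL at 90.02 and STK31 at 88.0. DAZL and SYCE1 followed at 86.1 and 82.9. SYCP3 varied most, from 31.0 in Angus 3 to 82.6 in Angus 1, with a mean of 68.8, and BRDT was at 13.8. The median of the 9 genes was 88.0, and within single libraries it lay between 85.2 and 90.3. Of the 9 genes, 4 stood at the percentile 90 or above: DDX4, TDRD1, HORMAD1 and MAEL.

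The first windows were next set against the bodies of the same genes. For each library the log2 ratio of first-window CPM to mean gene-body CPM was taken, with 0.1 CPM added to both, and tested with an exact two-sided sign-flip permutation test over the 8 libraries, adjusted by Benjamini-Hochberg over 15907 autosomal genes with at least 3 windows. The first window was called higher, at an adjusted p under 0.05 and at least 2-fold, in 7 of the 8 germline genes tested, while 6.93% of all genes tested were called higher and 31.8% lower. The median log2 ratio was 2.43 over the 8 genes and -0.51 over all genes, so that the usual gene had fewer reads at its start than in its body. The bodies of the 8 genes were low as well, from 0.159 CPM in HORMAD1 to 0.380 CPM in DAZL. The median body of all genes tested held 0.586 CPM. The high ratios thus came from both levels, a high first window and a low body.

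HORMAD1 had the highest log2 ratio, 3.05 ± 0.36 (SD, n = 8; range 2.72 to 3.80), an 8.27-fold difference on this scale. DDX4 followed with 2.99 ± 0.38 and STK31 with 2.69 ± 0.44. MAEL had 2.501 ± 0.41 and TDRD1 2.35 ± 0.27. SYCE1 and DAZL were lowest among those called, with 1.77 ± 0.43 and 1.72 ± 0.43, or 3.41-fold and 3.31-fold. Each of these 7 genes had the higher first window in 8 of 8 libraries, and each had the exact permutation p of 0.0078125, which is the smallest that 8 libraries allow and became 0.0129 after adjustment. The adjusted value is the same for all because many genes of the genome share that smallest p.

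BRDT had a log2 ratio of -0.91 ± 0.63, with the first window lower in 8 of 8 libraries and the same exact permutation p, but short of the 2-fold minimum. Without Holstein 2 its log2 ratio was -1.004, and without Holstein 4 it was -1.02, and BRDT was then called lower. LOC525413 had a log2 ratio of 2.43 ± 0.20, higher in 8 of 8 libraries.

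**Figure D3:**
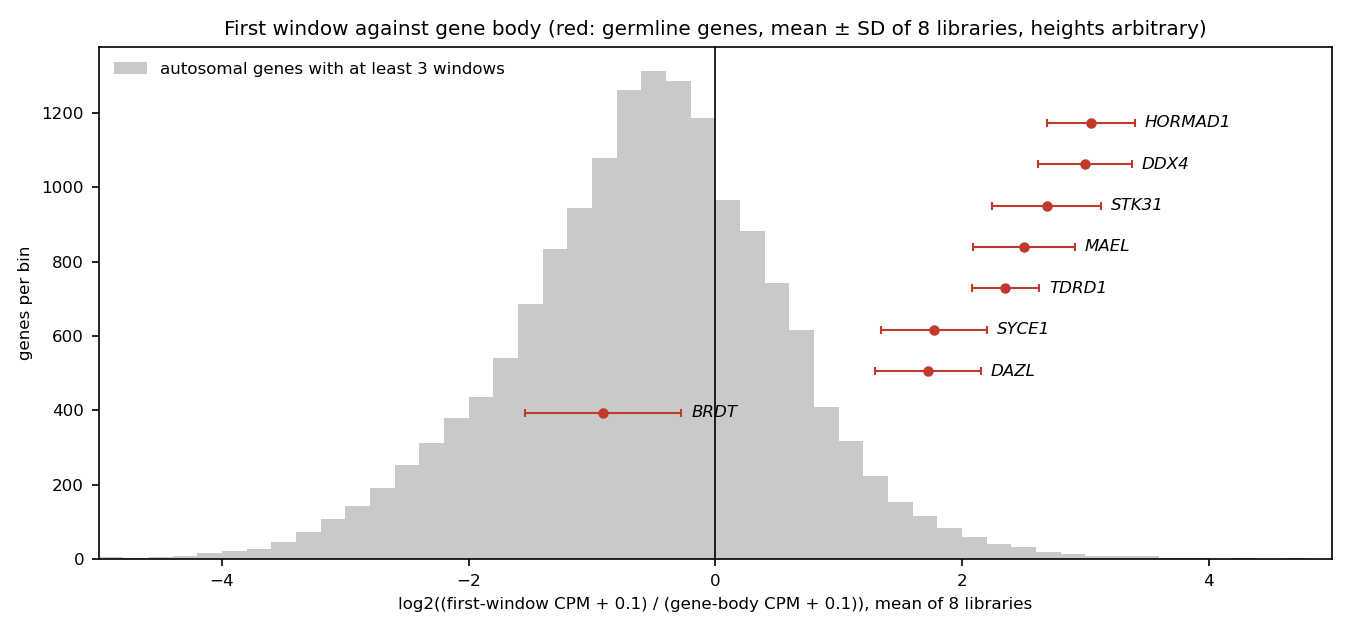
First window against gene body. Grey bars count autosomal genes with at least 3 windows by their log2 ratio (x axis, mean of 8 libraries, 0.1 CPM added to both levels); red points are the 8 germline genes tested with the SD of 8 libraries, drawn at arbitrary heights. Of these, 7 lie between 1.72 and 3.05, on the right edge of the grey bars, and BRDT, at -0.91, lies amid the grey bars.

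The first window was also the highest window of its gene in all 8 libraries in each of the 9 genes except BRDT, where it was so in none. Without SYCP3, which has only 2 windows, this is 7 of 8 genes, against 3.43% of the autosomal genes with at least 3 windows. In LOC525413 it held in 7 of 8 libraries, since 1 window deep in the gene reached 0.978 ± 0.508 CPM on average.

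Upstream and downstream of the first window, the reads fell within 1 window in most genes. The median of the 9 genes was 0.278 CPM at 6 kb upstream, 0.280 CPM at 3 kb upstream, 1.69 CPM in the first window and 0.168 CPM in the second. Autosomal genes in general showed no such step, with medians of 0.399, 0.389, 0.383 and 0.421 CPM at the same places.

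Holstein 1 and Angus 3, the libraries with the most concentrated reads, had the lowest sums over the 9 first windows, 10.6 and 9.40 CPM, against 13.1 to 16.9 CPM in the others. Their median log2 ratios over the genes, 2.45 and 2.40, lay inside the range of the other libraries, 1.84 to 2.85. With these libraries left out, a step added after the data had been seen, 7 of the 8 genes were still called higher, against 6.88% of all genes.

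The remaining genes of the pathways were described with 2 lists, one of 30 further meiosis genes and one of 26 further genes of the piRNA pathway and germ granules. These lists resembled the 9 genes in part. Of 21 meiosis genes tested, 8 had a first window called higher and 1 called lower, against 6.93% and 31.8% of all genes tested. The other 12 were neither, and the median log2 ratio of the list was 0.62. SPATA22, a partner of the meiotic recombinases, had the highest ratio, 3.48 ± 0.44, with 2.32 ± 0.598 CPM in its first window. BOLL, a relative of DAZL, followed at 2.25 ± 0.44, and MSH4, a crossover factor, at 1.71 ± 0.51.

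At the other end of the meiosis list, HORMAD2, the paralog of HORMAD1, was called lower, with a log2 ratio of -1.53 ± 0.41 and 0.152 ± 0.0828 CPM in the first window. SYCE2 of the synaptonemal complex stood at -0.88 ± 0.54 and the cohesin gene RAD21L1 at -0.80 ± 0.37, both short of 2-fold. HORMAD1 and HORMAD2, and likewise SYCE1 and SYCE2, thus lay on opposite sides of 0.

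Of 21 piRNA and germ granule genes tested, 7 were called higher and 4 lower, against 6.93% and 31.8% of all genes tested. The other 10 were neither, and the median log2 ratio of the list was 0.09. RNF17, a Tudor protein, had 2.77 ± 0.45, PIWIL2, a piRNA-binding Argonaute, 2.49 ± 0.49, and ASZ1, a protein of the germ granules beside mitochondria, 2.37 ± 0.60. The lowest were TDRD12 at -1.86 ± 0.56, DDX25 at -1.48 ± 0.38 and PNLDC1, a piRNA-trimming nuclease, at -1.27 ± 0.29, all called lower. PNLDC1 had 1.17 ± 0.404 CPM in its first window, a level close to that of SYCE1, but 2.86 ± 0.607 CPM in its body.

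Genes that every cell uses and genes of dermal fibroblasts were set beside them. Among 18 genes used by every cell, 2 were called higher, LDHA at 1.499 ± 0.14 and VPS29 at 1.23 ± 0.47, and 6 lower, shares not far from the 6.93% higher and 31.8% lower of all genes tested. The first window held 0.686 ± 0.218 CPM in LDHA, a glycolytic enzyme, above the autosomal median, and 0.259 ± 0.0987 CPM in VPS29, a part of the retromer, below it. REEP5 came next at 0.53 ± 0.27 and was not called. The lowest were SDHA at -3.19 ± 0.59, ENO1 at -1.75 ± 0.46 and B2M at -1.72 ± 0.41, and the median of the list was -0.46.

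Among 18 dermal fibroblast genes, 0 were called higher by this test and 7 lower, with a median log2 ratio of -0.69; in a list of this size, 0 and 7 are not far from the shares of all genes, 6.93% and 31.8%. COL6A1, a collagen chain, had -2.96 ± 0.64, the growth factor receptor PDGFRB -1.95 ± 0.44 and the transcription factor TWIST2 -1.92 ± 0.63. The highest of the list were VIM at 0.58 ± 0.61, PRRX1 at 0.12 ± 0.27 and COL5A1 at 0.07 ± 0.23. In COL5A1 the first window held 3.88 ± 1.19 CPM, more than in any of the 9 germline genes, beside a body of 3.62 ± 0.935 CPM, so a high first window alone also occurred in a gene of the cell type. Some genes of the meiosis list, of the piRNA list and of the genes used by every cell also lay above all 9 germline genes in their first window. The median first window was 0.219 CPM in the fibroblast list, 0.390 CPM in the genes used by every cell, 0.658 CPM in the meiosis list, 0.982 CPM in the piRNA list and 1.69 CPM in the 9 genes. The number of CpG per window, which also sets the reads of a pull-down, was not measured, and its part in these differences was not tested.

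**Figure D4:**
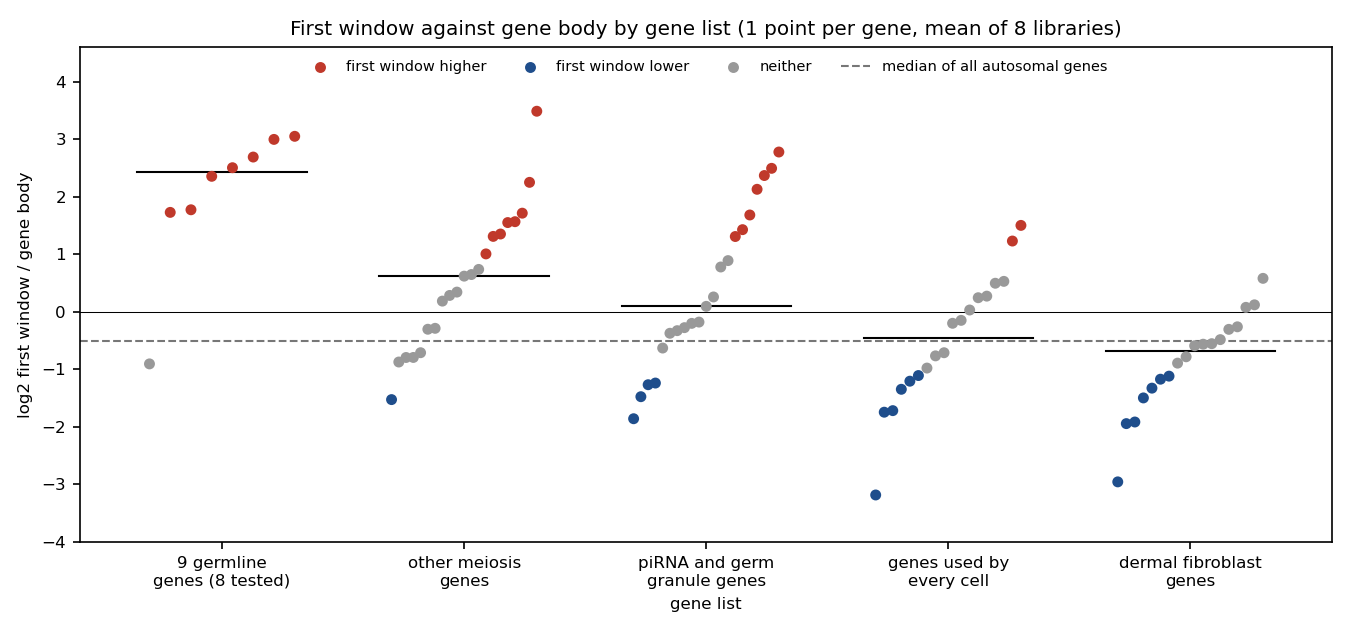
Log2 ratio of first window to gene body by gene list. Each point is 1 gene (mean of 8 libraries), red where the first window was called higher, blue where lower and grey where neither; black bars are list medians and the dashed line is the median of all autosomal genes, -0.51. Called higher were 7 of 8 germline genes, 8 of 21 meiosis genes, 7 of 21 piRNA and germ granule genes, 2 of 18 genes used by every cell and 0 of 18 fibroblast genes.

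The breeds were compared to see whether Holstein and Angus cultures differed at these genes, as the study did for the genome, with edgeR's likelihood-ratio test at FDR < 0.1 and FC ≥ 2. Over the whole genome this fit called 267 windows, 45 with more reads in Holstein and 222 with more in Angus. The study reported fewer regions at these limits, divided almost evenly between the breeds, so its list was not reproduced. None of the 9 germline genes was called different between the breeds. Since few features of the genome were called at all, this says little of whether the breeds were alike at these genes. Among windows with 1 CPM in 4 libraries, 12 belonged to the 9 genes or their borders and 0 were called by edgeR, against 0.231% of the 115360 windows tested. The quasi-likelihood test and DESeq2 also called 0, and 2 of the 12 had an unadjusted p under 0.05: the first windows of SYCE1 and MAEL, both with more reads in Angus. SYCE1 had a log2 fold change, Holstein over Angus, of -0.47 ± 0.21 (SE) and MAEL of -0.37 ± 0.18, with edgeR FDR values of 0.863 and 0.969.

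With a lower minimum of 10 reads, the first windows of all 9 genes could be tested, BRDT included. Again 0 were called, against 0.177% of 24844 first windows, and 1, that of SYCE1, had an unadjusted edgeR p under 0.05. The log2 fold changes of the 9 first windows ran from -0.48 ± 0.23 in SYCE1 to 0.69 ± 0.68 in BRDT, whose SE was the largest because of its few reads. DDX4 was closest to 0, at -0.02 ± 0.19. With reads summed over whole genes, 0 of 9 were called, 0 had an unadjusted edgeR p under 0.05, and 0.0773% of 23276 genes were called.

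After scaling by edgeR's TMM factors, the 4 Angus libraries lay above the 4 Holstein libraries in the first windows of MAEL and SYCE1, and the breeds overlapped in the other 7 genes; 2.34% of first windows had no overlap on this scale. For MAEL the scaled means were 1.64 ± 0.0331 CPM in Holstein and 2.09 ± 0.419 CPM in Angus, and for SYCE1 1.04 ± 0.214 and 1.48 ± 0.150 CPM (SD, n = 4). Each had an exact two-sided permutation p of 0.0286, the smallest that 4 against 4 allows. That p follows from the lack of overlap, adds nothing to it, and was not adjusted over the genes. Without TMM scaling the breeds overlapped in all 9 genes, where 1.48% of first windows had no overlap. The exact permutation p was then 0.486 for MAEL and 0.229 for SYCE1. The TMM scaling of these values was added after the data had been seen.

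The ratio of first window to gene body was compared between the breeds as well. Of the 8 germline genes tested, 0 had an exact permutation p under 0.05, and 0.0% of the 15907 genes were called. The smallest p that 4 against 4 libraries allow, 0.0286, could hardly pass the adjustment over so many genes, so the absence of calls here was set by the design and says nothing of whether the breeds were alike. The lowest p was 0.229, for BRDT, where the log2 ratio was -0.60 ± 0.60 in Holstein and -1.22 ± 0.56 in Angus (SD, n = 4, exact permutation test). The differences in the 7 genes with a high first window ran from -0.34 in SYCE1 to 0.33 in STK31, Holstein minus Angus, on the log2 scale.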

How the data were processed

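MIRA-Seq libraries of un-treated dermal fibroblasts from 4 Holstein and 4 Angus heifers were used, grouped by the breed and animal number in the labels. The authors filtered the reads (CASAVA 1.7 is named in the submitters' processing notes), aligned them to UMD 3.1 with NextGENe 2.3.4 and deposited raw read counts in 3 kb windows, without normalization, with gene and coding exon names. The deposited coverage of each window, mean and highest, is a signal not scaled for depth and written up to 65535; no result rests on it. How the authors treated duplicates and reads matching several places is not given in the sources used here. No input library was used, so CpG density and copy number were not separated from methylation. The RNA-Seq data were not analysed here.

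Counts were divided by the total over windows (18691111 to 35525554 reads) and scaled to 3 kb. Windows over 10000 bp or spanning chromosome ends were left out, as were 90 gene names on several chromosomes or strands. Percentiles refer to 23916 autosomal genes. Ratios of first window to gene body were tested by exact sign-flip and, between breeds, exact permutation tests (Python 3.11.15, numpy 2.4.6, pandas 2.3.3, scipy 1.17.1). Breeds were compared with edgeR 4.0.16 (R 4.3.3) after the study's methods, with windows at CPM ≥ 1 in at least 4 libraries, TMM, the likelihood-ratio test and Benjamini-Hochberg adjustment. Each standard error (SE) was back-calculated from the log2 fold change and its p. DESeq2 1.42.0, the quasi-likelihood test, other scalings, filters and pseudocounts, the replicate block and leaving out single libraries were the alternatives. The sign-flip, permutation and likelihood-ratio tests were tried on simulated data, and DESeq2 and the quasi-likelihood test were not.

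The genes and gene lists were chosen with earlier results of these data known. All 9 genes were named, and of each other list the 3 genes with the highest and the 3 with the lowest mean ratio; COL5A1 falls under this rule. Genes missing by symbol were sought by gene ID or synonym in the RefSeq gene table (ARS-UCD2.0), used for names only, as its build differs; no sequence of the files' build was used here.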

Additional observations from a re-analysis of the deposited data

Results flagged for a closer look

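Of 38 groups of 4 libraries checked for a library far from the rest by Dixon's test, 2 held one; chance gives about 1 in 20. In the first window of DAZL, Angus 4 was the highest Angus library, with 1.82 CPM against 1.44 CPM in the nearest, while the others lay close together; the Holstein libraries reached as high. In the first window of SYCP3, Angus 3 was the lowest Angus library, with 0.168 CPM, or 5 reads, against 1.07 CPM in the nearest. Angus 3 had the most concentrated reads of all libraries (72.4% in the top 1% of windows), and the part of this in the SYCP3 value was not tested.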

How the results depend on the processing

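The 7 germline genes with a higher first window kept this call with pseudocounts of 0.05 and 0.5 CPM, with a minimum of 100 reads per gene, with the median of the other windows as gene body, without the second and last window, with TMM library sizes, and without each library in turn (7 in every case). They lost it only with the replicate block, the mean over same-numbered animals. This gave 0 genes because 4 pairs allow no exact p below 0.125. The mean log2 ratios cannot change under this block, since the mean of the pair means is the mean of the libraries. No source says that same-numbered animals were paired, and the deviations of same-numbered libraries had correlations of -0.216 to 0.111, with 1 of 8 libraries closest to its own number. The count of genes with a lower first window rose from 0 to 1, BRDT, with a pseudocount of 0.05 CPM, and ranged from 0 to 1 when single libraries were left out, being 1 without Holstein 2 or Holstein 4. The share of all genes called higher was 3.08% with 0.5 CPM and 9.91% with the median gene body, against 6.93%. The median percentile of the 9 first windows, 88.0, moved to 76.2 when the highest of the first window and the windows beside it was ranked, and to 89.8 among genes with at least 3 windows; it ranged from 87.6 to 88.9 without single libraries. The breed tests called 0 germline windows, first windows or genes under each of 15 alternatives, the replicate block included (0). These alternatives called at most 0.493% of all windows, first windows or genes tested. With shares this low, 0 calls among so few germline features says little of whether the breeds were alike there. At this depth a first window of fewer than 3 reads, as in most libraries for BRDT, cannot be told from one with none. BRDT held more in Holstein 2, Holstein 4 and Angus 1, with 7, 9 and 7 reads. Windows of 3 kb do not separate a promoter from the first exon.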
